A study of Chlamydomonas reinhardtii with 6 samples.

Results

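The 3 wild-type (WT) RNA-seq libraries of the unicellular green alga Chlamydomonas reinhardtii are described here, chosen by their label from the 6 libraries of the series. They came from strain CC125, have the genotype WT and are biological replicates 1, 2 and 3 by their labels. The acetate medium TAP, 25 °C and dim light (20 µmol photons per m2 per s) were used for growth, after which the cells went into high salt medium (HSM) and bright light of 300 µE. The sources used here do not give the time in bright light, and no WT sample from dim light was analysed here, so the levels are those of exposed cells without an unexposed baseline. The other 3 libraries, from cmd1 KO cells of the same labelled strain, were not used.

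Chlamydomonas has a single large chloroplast and can grow either on acetate or on light alone. HSM supplies no acetate, so cells in it depend on photosynthesis, and light beyond what photosynthesis can use sets off photoprotection and repair. In growing cells of this alga, transcripts for ribosomal proteins, light-harvesting proteins and the small subunit of Rubisco are known to be abundant. Which of the measured identifiers encode them was not analysed here, because 0 of the identifiers carried a gene symbol in the sources used. Genes are therefore described by level, length and position, and no function is given to any of them.

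The table held 17736 gene models, of which 17466 lay on the 17 chromosomes, and WT counts summed to 39072635 in replicate 3, against 45087656 and 41316097 in replicates 1 and 2. One library stood apart before any gene was singled out. Across 11917 genes, those averaging 1 FPKM or more that had a count in every library, log2 levels of replicate 3 correlated with those of replicates 1 and 2 at 0.798 and 0.788 (Pearson), while replicates 2 and 1 correlated at 0.987. These are descriptions across genes that share the libraries, not tests. All 3 carry the same label, so a difference between replicate 3 and the others rests on 1 library and has no replicate check, and no p-value is given anywhere below. What sets replicate 3 apart is not given in the labels and was not tested, so every mean and SD over the 3 libraries spans this gap. In bulk RNA, fewer cells of a kind and less RNA per cell cannot be told apart.

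A small set of genes held most of the WT transcripts. The 50 genes with the highest mean share of counts took 39.3% ± 7.79 of the counts (SD, n = 3). In replicate 3 they took 30.4%, against 42.9% and 44.7% in replicates 1 and 2. Counting error on such shares was at most 0.0157 percentage points (95% Wilson interval), which covers no other source of spread between libraries. The single gene with the most counts, Cre06.g272800, took 1.32% of replicate 3, against 1.96% and 2.01% of replicates 1 and 2. In replicate 3, 123 genes were needed to reach 50% of the counts, against 66 and 61 genes in replicates 1 and 2.

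Levels of different genes were compared per length, as transcripts-per-million (TPM), which is the deposited FPKM rescaled to the same total in each library. On that scale the 50 most abundant genes by mean TPM held 56.3% ± 6.39 of the transcripts (SD, n = 3), with 49.0% in replicate 3, against 58.6% and 61.2% in replicates 1 and 2. The number of genes at 10000 TPM or more was 19 in replicate 3, against 26 and 29 in replicates 1 and 2. At 10 TPM or more the order was the other way round, with 4673 genes in replicate 3, against 3434 and 3290. Replicate 3 thus had a flatter distribution, with less in its top genes and more in genes of middle level. No count was found in any WT library for 701 genes. A gene without a count could still stand at up to 0.0768 CPM (counts-per-million of the library) in replicate 3, and at up to 0.0665 and 0.0726 CPM in replicates 1 and 2, the limit that 3 counts allow for counting error alone.

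**Figure D1:**
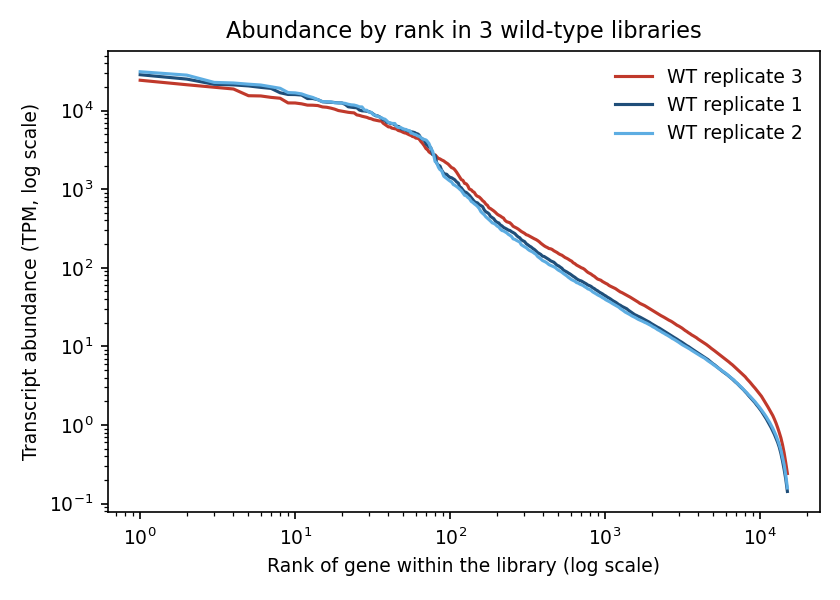
Transcript abundance in TPM (vertical, log scale) against the rank of the gene within its library (horizontal, log scale) for WT replicates 3, 1 and 2. The curves of replicates 1 and 2 drop just beyond rank 75. The curve of replicate 3, lower at the start, runs above them from about rank 80.

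The curve of mean level against rank had a shoulder near rank 75. Mean levels were 26202 TPM at rank 1 and 3521 TPM at rank 75, then 2486 TPM at rank 80 and 405 TPM at rank 200. Ranked within each library, the drop between ranks 75 and 82 was seen in replicates 1 and 2 and was smaller in replicate 3. Replicate 3 had 2869 TPM at its rank 75 and 2587 TPM at its rank 82, against 3381 and 2137 TPM in replicate 1 and 3339 and 2159 TPM in replicate 2. Its own curve fell somewhat earlier, from 4354 TPM at its rank 63 to 2983 TPM at its rank 73. The 75 genes with the highest mean, a limit set after the curve was seen, held 59.6% of the transcripts in replicate 3, against 70.4% and 73.0% in replicates 1 and 2. Their median length was 857 bases, against 2451 bases over the 11934 genes that averaged 1 FPKM or more. Length here is the value implied by the deposited counts and FPKM. Their span on the chromosome was not short to the same degree, with a median of 2391 bases against 4280 bases. The median ratio of span to length was 2.47 for the 75 genes and 1.67 over all genes, so more of the span of the abundant genes lay outside the counted length. A span within 1.5 bases of the counted length, as a gene without introns would have, was found for 4 of the 75 (5.33%) and for 404 of all genes (3.39%).

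The most abundant gene by mean TPM was Cre16.g666301 on chromosome 16, from 3195436 to 3196549 in the v5.5 assembly, with a counted length of 691 bases. It stood at 18815 TPM in replicate 3, against 28591 and 31199 TPM in replicates 1 and 2, so it led both of those libraries and stood at rank 4 in replicate 3. Cre12.g529400, on chromosome 12 from 5337169 to 5338626, came next and was the leading gene of replicate 3. Its level was 24318 TPM in replicate 3, against 25150 and 28246 TPM in replicates 1 and 2. Cre06.g273600, on chromosome 6 from 3001036 to 3002331, had 21310 TPM in replicate 3, against 21606 and 22835 TPM. Cre16.g682300, on chromosome 16 from 5314224 to 5315051, had 19836 TPM in replicate 3, against 21230 and 22441 TPM. TPM is a share of each library's transcripts, and with counts scaled between libraries by edgeR's trimmed mean of M-values (TMM) the last 2 genes had log2 ratios of -0.61 and -0.69 for replicate 3 over the mean of replicates 1 and 2.

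Further down the 15 most abundant genes, the TPM of replicate 3 lay within or above the other libraries for some genes and below them for most. Cre04.g211800, on chromosome 4 from 1820838 to 1822129, had 14715 TPM in replicate 3, which lay between the 14224 and 16306 TPM of replicates 1 and 2. Cre06.g282500, on chromosome 6 from 5263768 to 5265705, had 15453 TPM in replicate 3, above 14223 and 14684 TPM in replicates 1 and 2. Cre06.g310700, on chromosome 6 from 8856657 to 8859173, had 12491 TPM in replicate 3, between 12006 and 13793 TPM. These were the 3 of the 15 whose TPM in replicate 3 was not the lowest of the libraries. Their TMM log2 ratios were -0.61, -0.46 and -0.60 all the same, and all 15 genes were below 0 both on the TMM scale, from -1.56 to -0.46, and with library size alone, from -1.20 to -0.09. The lowest of these ratios was that of Cre12.g528750, on chromosome 12 from 5283273 to 5285510, with 8200 TPM in replicate 3, against 16036 and 16950 TPM. Cre10.g420750, on chromosome 10 from 436080 to 437322, had 11012 TPM in replicate 3, against 19135 and 21142 TPM. The other 6 were Cre12.g498250, Cre12.g494050, Cre12.g489153, Cre01.g027000, Cre12.g537800 and Cre06.g272800, whose means ran from 11924 to 18582 TPM.

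**Figure D2:**
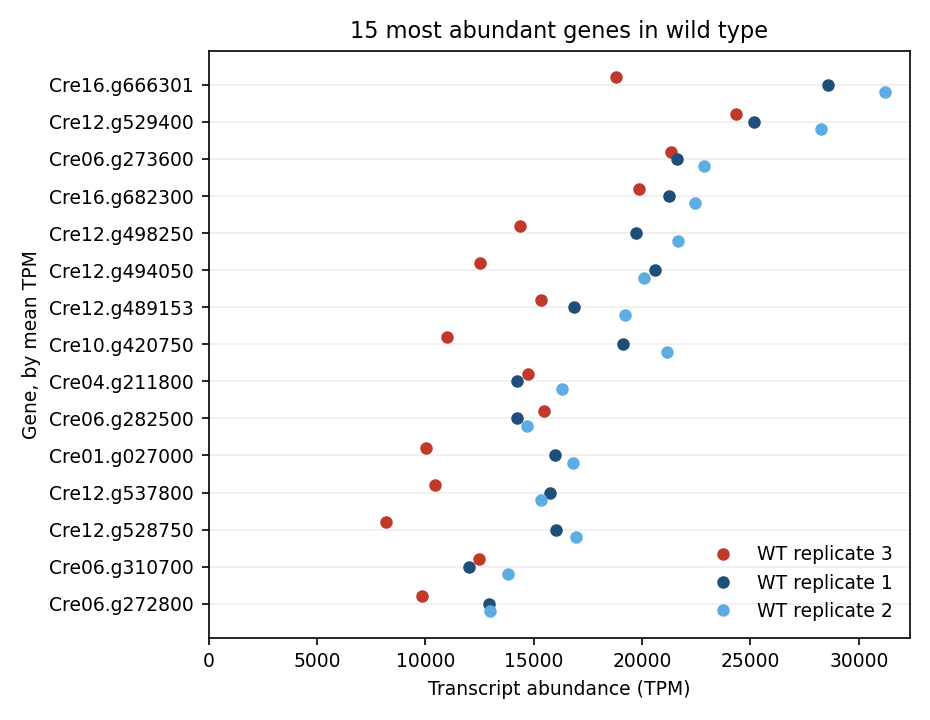
Abundance in TPM (horizontal) of the 15 genes with the highest mean in WT, one row per gene, with a point for each of WT replicates 3, 1 and 2. On this scale replicate 3 has the lowest point in 12 of the 15 rows, and the points of replicates 1 and 2 lie close together in most.

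Ranking by counts instead of by TPM brought longer genes forward. Cre06.g272800, on chromosome 6 from 2937601 to 2941166, was first by counts and only fifteenth by TPM, since its counted length was 1725 bases. The lists of 15 shared 10 genes. Those on the list by counts alone were Cre08.g359750, Cre13.g568650, Cre06.g290950, Cre17.g701650 and Cre04.g214503, with lengths from 857 to 1321 bases. Among the 100 most abundant genes by each measure, 90 were shared. The list of 100 was also much the same between libraries, with 93 and 91 of the replicate 3 genes found among the top 100 of replicates 1 and 2, and 97 shared by replicates 2 and 1. Of the top 500, replicate 3 shared 80.4% and 79.6% with replicates 1 and 2, while those shared 95.2% with each other.

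Short genes carried most of the counts. With the 11934 genes ordered by length and cut into 5 equal classes, the shortest class, of 241 to 1582 bases, held 58.4% ± 6.48 of the counts (SD, n = 3). Its share was 51.0% in replicate 3, against 61.8% and 62.5% in replicates 1 and 2. The longest class, of 3994 to 33247 bases, held 8.48% of the counts in replicate 3, against 5.49% and 5.91%. Of the 100 most abundant genes, 86 fell in the shortest class and none in the upper 2 classes. A longer gene yields more counts per transcript, so the share of the shortest class in transcripts was larger still, at 74.9% of TPM in replicate 3, against 81.7% and 82.7%.

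**Figure D3:**
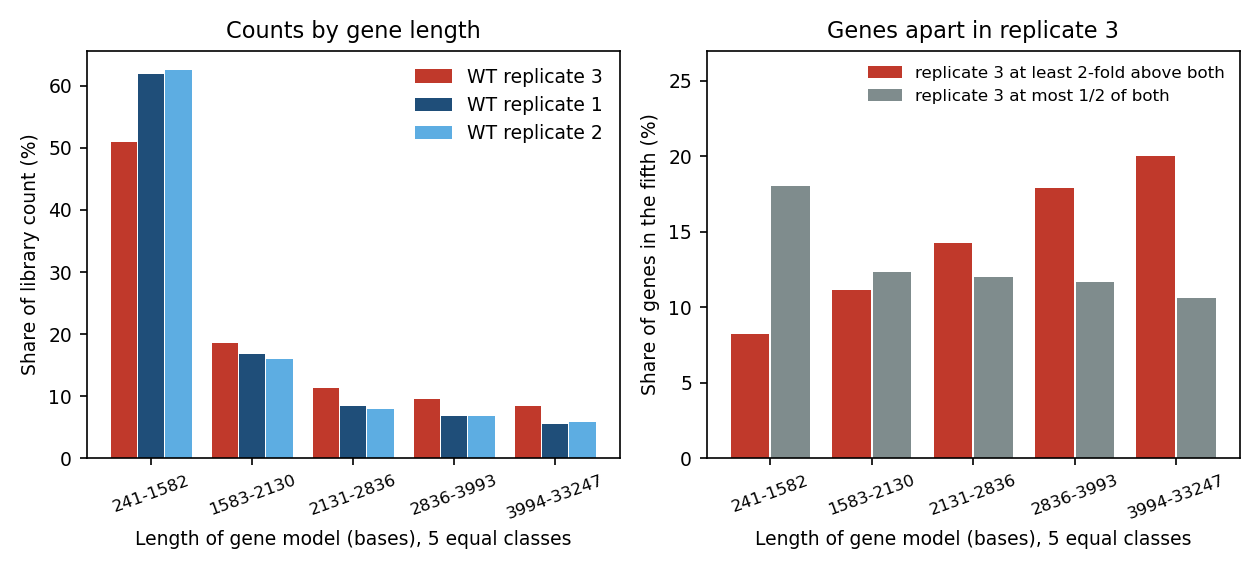
Left, share of the library count (%) held by 5 equal classes of gene length for WT replicates 3, 1 and 2. Right, share of the genes of each class (%) whose TMM-scaled level in replicate 3 was at least 2-fold above both other libraries, or at most 1/2 of both, showing 8.25% and 18.01% in the shortest class and 20.0% and 10.6% in the longest.

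Abundant genes were spread unevenly over the chromosomes. Chromosome 12 held 10.0% of the gene models and 17.4% ± 1.19 of the counts (SD, n = 3), with 16.1% in replicate 3, against 17.9% and 18.3% in replicates 1 and 2. Chromosome 6 held 8.98% of the models and 13.6% ± 1.03 of the counts, with 12.5% in replicate 3, against 14.2% and 14.2%. These chromosomes carried 19 and 13 of the 100 most abundant genes. Without those 100 genes, chromosome 12 held 11.5% of the remaining counts and chromosome 6 held 10.2%, on average over the libraries. Chromosome 3 lay at the other end among the larger chromosomes, with 9.02% of the models and 5.22% ± 0.686 of the counts, and it carried 4 of the 100. Its share was 6.01% in replicate 3, against 4.85% and 4.79%. Without the 100 most abundant genes, chromosome 3 held 9.31% of the remaining counts on average over the libraries, near its share of models.

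**Figure D4:**
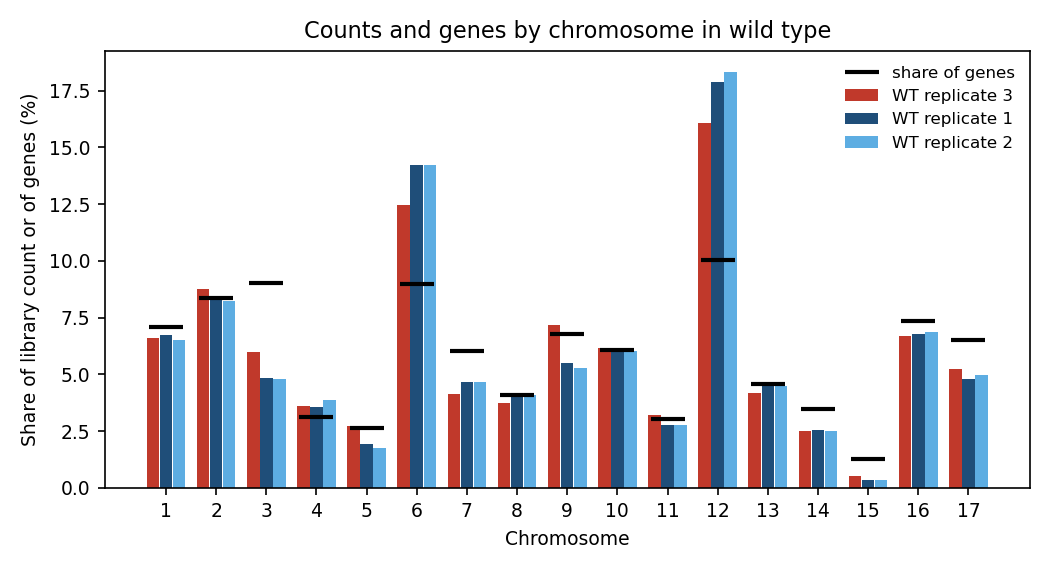
Share of the library count (%) on each of the 17 chromosomes for WT replicates 3, 1 and 2 (bars), with the share of gene models (black line). Chromosomes 12 and 6 stand above their share of genes in every library, and chromosome 3 below it.

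Pairs of adjacent models with both members in the list numbered 0 among the top 100 by mean TPM, 5 among the top 200, 24 among the top 500 and 89 among the top 1000, of 17449 adjacent pairs. The pairs held 5.00% of the top 200 genes, 9.40% of the top 500 and 17.0% of those of the top 1000 that lay on chromosomes. How many pairs random order would give was not computed, so these shares have no background. The 5 pairs of the top 200 differed in direction. On chromosome 10, Cre10.g420700 and Cre10.g420750 were both at most 1/2 of the other libraries in replicate 3, with TMM log2 ratios of -1.70 and -1.43. In a pair on chromosome 6 and one on chromosome 7, 1 member was lower by this rule, Cre06.g272950 at -1.34 and Cre07.g343050 at -7.42. In the pair on chromosome 5, Cre05.g248450 had 2540 TPM in replicate 3, against 1059 and 684 TPM, and Cre05.g248400 had 2428 TPM, against 909 and 604 TPM, with log2 ratios of 0.99 and 1.13. On chromosome 2, Cre02.g120100 and Cre02.g120150 lay 46 bases apart and had log2 ratios of -0.22 and 0.23. Reads that fit near-identical copies or overlapping models were not separated here, so levels of such neighbours are uncertain.

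For comparison between libraries, the TMM scale was used, with factors of 1.18 for replicate 3, against 0.920 and 0.918 for replicates 1 and 2. Library size alone raises every log2 ratio of replicate 3 over the mean of replicates 1 and 2 by 0.36. A gene was called higher where replicate 3 was at least 2-fold above both other libraries, lower where it was at most 1/2 of both, and stable where the highest library was at most 25% above the lowest. Of the 500 most abundant genes, 37 were higher (7.40%) and 74 lower (14.8%) in replicate 3. Over all 11934 genes the shares were 14.3% higher and 12.9% lower, so the abundant genes had fewer higher calls than the background and about as many lower ones. With library size alone the 500 genes gave 65 higher (13.0%) and 34 lower (6.80%), against 22.5% and 7.95% over all genes. The balance of directions among the 500 thus rests on the scaling, while the share called higher was below the background with both. Ranked on replicates 1 and 2 alone, 13 of the top 500 were higher and 96 lower, and ranked on replicate 3 alone, 67 were higher and 43 lower, since a ranking favours genes that are high in the libraries it uses.

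With genes ranked by mean TPM, the median ratio of replicate 3 was lowest among the most abundant. This ranking favours genes high in replicates 1 and 2, which can build in part of a ratio below 0. No such ratio is given here for a ranking on replicate 3 alone. The 75 most abundant genes had a median log2 ratio of -0.89 for replicate 3 over the mean of replicates 1 and 2, and 68 of them were below 0. With library size alone the median was -0.53 and 59 were below 0. Of the 75, 25 were called lower and 0 higher, and with library size alone 7 were lower (9.33%) and 0 higher, against 7.95% and 22.5% over all genes. The next 425 genes had a median of -0.13, with 37 higher and 49 lower, and with library size alone their median was 0.23. Against this, replicate 2 over replicate 1 had a median of 0.06 with an SD of 0.13 among the 75 genes, and of -0.17 with an SD of 0.22 among the next 425. Only 1 of the 500 differed 2-fold or more between replicates 2 and 1, and over all genes 1.02% did. The same 2-fold rule with replicate 1 set against both others called 0 of the 500 higher and 0 lower, where the background was 0.0419% and 0.369%. With replicate 2 set against both others it called 0 higher and 1 lower, where the background was 0.159% and 0.293%. Such calls need a 2-fold difference between replicates 2 and 1, which only 1 of the 500 had, so they add nothing to that count.

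**Figure D5:**
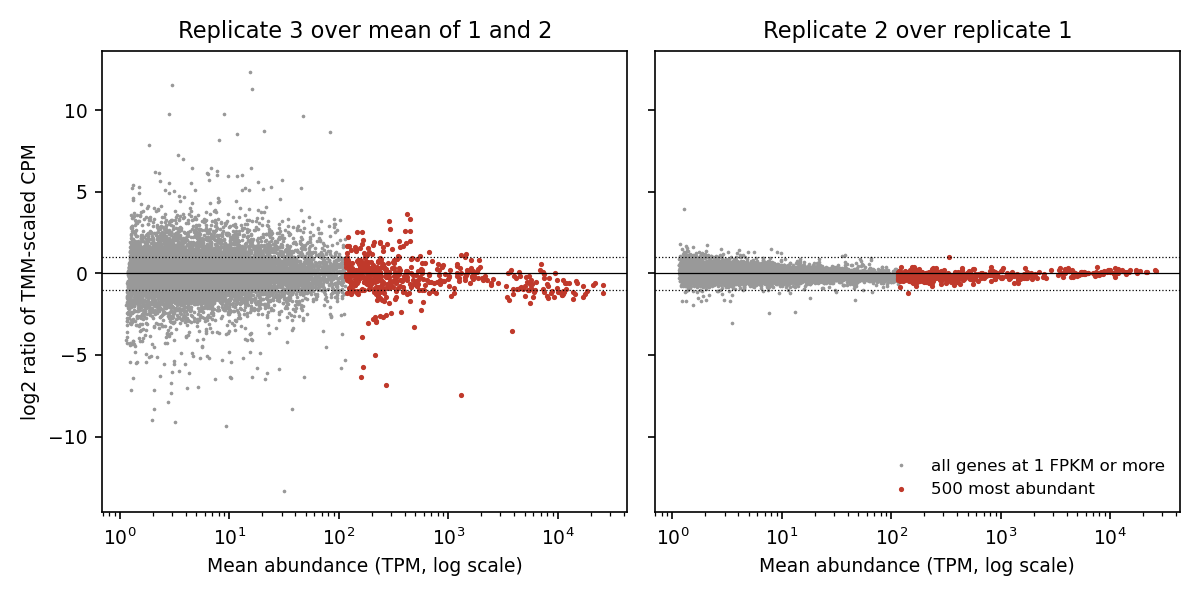
Log2 ratio of TMM-scaled CPM (vertical) against mean abundance in TPM (horizontal, log scale) for genes averaging 1 FPKM or more, the 500 most abundant in red. Left, replicate 3 over the mean of replicates 1 and 2, where the most abundant genes lie below 0. Right, replicate 2 over replicate 1, where the spread is much narrower. Dotted lines mark 2-fold, and ratios with a count of 0 are not drawn.

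Single genes among the 500 differed strongly in both directions. A gene can enter the 500 through the libraries in which it is high, 2 of which are replicates 1 and 2, so the ranking favours such genes. Cre07.g343050, on chromosome 7 from 4424365 to 4425551, had 12.9 TMM-scaled CPM in replicate 3, against 2233 and 2204 CPM in replicates 1 and 2, a log2 ratio of -7.42. By TPM it ranked 3197 in replicate 3, against 86 and 84 in replicates 1 and 2. The next gene model, Cre07.g343101, lies 7 bases beyond its end and stood at 567 TPM in replicate 3, against 654 and 633 TPM. Cre12.g502600, on chromosome 12 from 2807687 to 2813938, had 13.5 CPM in replicate 3, against 1523 and 1601 CPM, a log2 ratio of -6.85. In the other direction Cre09.g396100, on chromosome 9 from 1809519 to 1811468, had 852 CPM in replicate 3, against 84.4 and 54.1 CPM, a log2 ratio of 3.62. Cre13.g570851, on chromosome 13 from 1275207 to 1278258, had 1081 CPM in replicate 3, against 108 and 108 CPM, a log2 ratio of 3.32. In all 4 genes replicates 1 and 2 lay far closer to each other than to replicate 3. With library size alone their log2 ratios were -7.06, -6.49, 3.99 and 3.69. At 4-fold rather than 2-fold, 8 of the 500 were higher (1.60%) and 18 lower (3.60%), against 4.22% and 3.54% over all genes. Over all genes with a count in every library the log2 ratios ran from -13.36 to 11.33. The gene at the low end had 1 count in replicate 3, against 8207 and 9771 in replicates 1 and 2. The gene at the high end had 3004 counts in replicate 3, against 1 and 1. Single counts thus set both ends, and their size is uncertain.

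The 74 genes called lower took 12.5% of the counts of replicate 3, against 25.3% and 25.6% of replicates 1 and 2. The 37 called higher took 3.41% of replicate 3, against 0.789% and 0.723%. The rule that chose these genes fixes the direction of both differences, so the shares give only their size. The called genes also differed in length, with a median of 1124 bases for those lower and 1896 bases for those higher. The same held over all genes: in the shortest length class 8.25% were higher and 18.01% lower, and in the longest 20.0% were higher and 10.6% lower. The median log2 ratio was -0.35 in the shortest class and 0.27 in the longest. Replicate 2 over replicate 1 went the same way with smaller values, with medians of -0.12 in the shortest class and 0.11 in the longest. Across 11917 genes of the same libraries, Spearman's rho of length with the log2 ratio was 0.198 for replicate 3 and 0.281 for replicate 2 over replicate 1, so the order by length was no weaker between replicates 2 and 1. Length therefore moved with the level in both contrasts, and its part in the calls was not tested.

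Of the 500 most abundant genes, 96 were stable over the 3 libraries (19.2%), against 17.2% of all genes, a share near the background. The stable genes took 11.7% of replicate 3 counts, against 9.37% and 9.05%, as its larger TMM factor entails for genes even after scaling. The most even of them was Cre10.g452100, on chromosome 10 from 4520613 to 4523220, with 419 TMM-scaled CPM in replicate 3, against 409 and 406 CPM. The highest of them stood at rank 28, so none of the 27 genes above it was stable by this rule. Which genes were stable depended on the scaling. With library size alone 105 of the 500 were stable, where 15.6% of all genes were, and 24 of these were among the 96. With library size alone Cre10.g452100 itself had a log2 ratio of 0.40.

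A further group was nearly silent on one side. The rule was set after the data were seen and applied to all 17736 gene models. By it, 24 genes had at most 3 counts in replicate 3 and at least 100 in both other libraries. Another 23 genes had at least 100 counts in replicate 3 and at most 3 in both others. Replicate 1 or replicate 2 against the remaining pair gave 0 such genes either way. A gene of that kind would need the same gap between replicates 2 and 1, which lay close together, so these counts of 0 are no check. The 24 genes summed to 31 counts in replicate 3, against 17898 and 21425 in replicates 1 and 2. The 23 genes summed to 18170 counts in replicate 3, against 13 and 14. Both groups were of modest level by mean TPM, the best of them at ranks 1223 and 2656. The mean includes the libraries that the rule requires to be nearly silent, 1 for the first group and 2 for the second. It therefore understates the level in the other libraries, and the ranks of the groups are not comparable. The first lay on 13 chromosomes, and of the second 19 genes lay on 10 chromosomes and 4 on unplaced scaffolds.

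The genes with the strongest differences were also sorted by position. At a 10-fold difference from both other libraries and at least 100 counts on the high side, 145 genes were higher in replicate 3, of which 27 lay in 12 runs of adjacent models. Likewise 151 genes were lower, of which 20 lay in 10 runs. These genes were not limited to the 11934 that averaged 1 FPKM or more, of which 106 were 10-fold higher and 124 were 10-fold lower. The number of runs to expect from as many genes in random order was not computed, so the runs have no background. A run of 3 genes on chromosome 9, from 1429073 to 1446304, had 8474 counts in replicate 3, against 11 and 3 in replicates 1 and 2. A run of 3 genes on chromosome 16, from 4474730 to 4484032, had 13294 counts in replicate 3, against 794 and 694. In the other direction, 2 genes on chromosome 7, from 1278084 to 1283531, had 239 counts in replicate 3, against 20780 and 13253.

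At the 2-fold rule neighbours tended to share a direction. Of the tested neighbours of higher genes 18.7% were higher and 10.8% lower, while the background was 14.3% and 12.9%. Of the tested neighbours of lower genes 20.95% were lower and 12.4% higher. Overlap between neighbouring models was not measured.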

How the data were processed

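Total RNA was extracted with Trizol and made into libraries with a stranded total RNA kit, per the labels' protocols. Per the submitters' processing notes the tools were FastQC 0.11.5, TopHat2 and Cufflinks 2.0.0. No source used here names the counting tool, its strand setting or the genome build. Whole-number counts per gene model were deposited without normalisation. The FPKM values, so named per the file headers, equal the count divided by a fixed length and the library total, for 100% of genes within 0.01 base. All 6 libraries share 1 table, with 0 unmapped columns, and only the WT columns were used.

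The shares, TPM and fold rules were computed with pandas 2.3.3 and numpy 2.4.6 (Python 3.11.15), TMM factors in edgeR 4.0.16 under R 4.3.3 on genes averaging 1 FPKM or more, and plots in matplotlib 3.10.9. Ranks use the mean over the 3 libraries. No test between groups was made, since there is 1 group. The 2-fold rule for higher and lower calls was tried on simulated counts with large changes in few genes, scaled by median-of-ratios factors. The stable rule, TMM scaling and changes near 2-fold were not simulated, so their performance is not known. The design foresaw shares of functional classes, replaced by classes of length and chromosome because no identifier had a name. Of the 17736 identifiers 17733 matched the RefSeq v5.5 gene table, whose coordinates are printed. Named genes are the 15 top genes by TPM and by counts, the largest 2 shifts each way among the top 500 and the most even gene, beside neighbour pairs picked later. Genes, members and lists were chosen with earlier results of these data known. Whether the replicates were separate cultures is not stated, so their SD may be technical in part.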

Additional observations from a re-analysis of the deposited data

How the results depend on the processing

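Depth did not limit the abundant genes, but the 3 WT libraries, of which replicate 3 stands apart, limit every mean. Shares of the top 50 genes ran from 36.6% to 44.0% of counts and from 53.9% to 60.2% of TPM when a replicate was left out. Leaving out 1 of 3 libraries cannot move a mean by more than 1 SD, so staying within 1 SD is no check. The shortest length class ranged from 56.4% to 62.2% and chromosome 12 from 17.0% to 18.1% in the same way. As shares of TPM these became 79.8% and 20.3%, and without the 10 most abundant genes chromosome 12 held 15.5%.

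The count of stable genes among the top 500 was 96, and ran from 147 to 413 when a replicate was left out, highest without replicate 3, and was 219 at 1.5-fold. The genes called higher in replicate 3 numbered 37, against 65 with library size alone, 17.5 per 500 among the 200 most abundant, 74 at 1.5-fold and 8 at 4-fold. The genes called lower numbered 74, against 34 with library size alone, 143 at 1.5-fold and 18 at 4-fold. Leaving out replicate 1 or replicate 2, 39 to 51 were higher and 87 to 94 lower, and without replicate 3 no call could be made. The same rule with replicate 1 against both others gave 0 higher and 0 lower, and with replicate 2 gave 0 higher and 1 lower. These low counts follow from how few genes differed 2-fold between replicates 2 and 1. Rankings added after the data were seen gave 13 higher when made on replicates 1 and 2, and 67 higher and 43 lower when made on replicate 3. Fewer samples or another threshold build some of these differences in, and other causes were not tested. No share over all genes is given here at 1.5-fold or with a replicate left out, so those counts have no background. Median-of-ratios factors and a prior count of 1 left the 37 and 74 calls at the same numbers. No paired analysis was possible because only WT libraries were used.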
